A study of Mus musculus with 15 samples.

Results

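The genes described here encode the subunits of the proteasome, together with its activators, its inhibitor and the chaperones that assemble it. They were chosen by name: protein coding genes whose symbol starts with Psma to Psmg followed by a digit, except the immunoproteasome genes Psmb8, Psmb9 and Psmb10. This gave 47 of the 24965 genes in the authors' deposited table. The rule also took in Psmc3ip and Psme3ip1, which are named as interaction partners of the members Psmc3 and Psme3 and do not encode subunits.

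The proteasome is the barrel-shaped protease of the cytosol and nucleus that degrades proteins tagged with ubiquitin. Its 20S core is built from outer rings of alpha subunits, which gate the entrance, and inner rings of beta subunits, of which Psmb5, Psmb6 and Psmb7 encode the catalytic ones. A 19S cap, with a ring of ATPases and a set of non-ATPase subunits, receives, deubiquitinates and unfolds the substrate. In cells exposed to interferon the catalytic subunits can be replaced by those of Psmb8, Psmb9 and Psmb10. When proteasome activity is short, the transcription factor made from Nfe2l1 raises the subunit genes together through antioxidant response elements in their promoters.

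RNA came from livers of male C57BL/6J mice of 9 weeks of age, all with floxed alleles of Gata4 (Gata4fl/fl). At 8 weeks they had received adeno-associated virus of serotype 8, either AAV8-Tbg-Cre, in which the hepatocyte promoter Tbg drives Cre (Gata4LKO, here knockout), or empty AAV8 (control). Livers were taken 7 days later. By the labels, 4 control and 4 knockout mice were fasted for 12 h, and 4 control and 3 knockout mice were fasted for 12 h before 12 h on refeeding chow holding 69% sucrose and 10% fat. Since controls had no Cre, the presence of Cre cannot be told apart from loss of Gata4, and each group carries a number of its own in the sample titles, so whatever that number stands for cannot be told apart from the group. The deposited p-values measure the spread between these samples only.

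The deposited file holds 1 comparison and no values per sample, so values are given as the authors' mean over libraries, their log2 fold change and its standard error (SE). Its header names no groups. Values of genes with a single read left 2 possible comparisons, knockout minus control in fasted livers and refed minus fasted in control livers. The first was taken, since the file is named for genotype, and every direction below rests on it. Of 9 lipogenic and glycolytic genes that sugar refeeding is known to raise, picked after their values were seen, 3 fell (Fasn, Srebf1 and Thrsp) and 0 rose. Of all tested genes, 1.6% were called lower and 0.585% higher. Fasn, the fatty acid synthase gene, was at -0.77 ± 0.18 (SE) per the authors' deposited table. Pck1, which fasting is known to raise, was at 0.01 ± 0.82 (SE) there. Size factors, relative to their median, ran from 0.897 to 1.09 over 15 libraries. For Gata4 itself the authors' deposited table gave 0.31 ± 0.15 (SE), with an unadjusted p of 0.0324 and an adjusted p of 0.361 by the DESeq2 Wald test. Its estimate was thus above 0, and not lower, in livers labelled knockout, and it was not called. The table counts whole genes, and whether its reads fall in the floxed part is unknown, so this does not check the deletion. The liver markers were present: Alb, the albumin gene, had a mean of 1107250 normalized counts in the authors' deposited table.

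None of the proteasome genes passed the test. By the authors' DESeq2 Wald test, 0 of the 46 members with an adjusted p were called higher and 0 lower at an adjusted p under 0.05. Of all 13335 genes tested, 2.19% were called, 0.585% higher and 1.6% lower. At an unadjusted p under 0.05, 15 members were higher, where 5.17% of tested genes were, and 1 was lower, where 6.21% were. The 47th member, Psmc3ip, had a mean of 3.23 normalized counts in the authors' deposited table and no adjusted p.

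The estimates of the core subunits chosen by name nonetheless lay on one side of 0. The 31 ordinary subunits of the 20S core and the 19S cap with Psm symbols, called core subunits here, had log2 fold changes from 0.01 to 0.33 in the authors' deposited table, and 31 of 31 were positive. Their median was 0.14, a fold of 1.10, with a median SE of 0.07. Among all tested genes the median was 0.01 and 51.9% of estimates were positive. The cap also holds subunits whose symbols the rule does not take in: Adrm1, a ubiquitin receptor, was at 0.04 ± 0.10 (SE) and Sem1, a small subunit, at -0.02 ± 0.07 (SE), below 0, per the authors' deposited table. Among the 4351 tested protein coding genes with a mean of at least 500 normalized counts, the median was 0.02 and 57.4% were positive. At an unadjusted p under 0.05, 13 of the 31 were higher, or 41.9%. Of the 30 with a mean of at least 500 it was 12, against 7.86% of abundant coding genes. Genes measured in the same livers are not independent of each other, so these shares describe the list and do not test it.

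**Figure D1:**
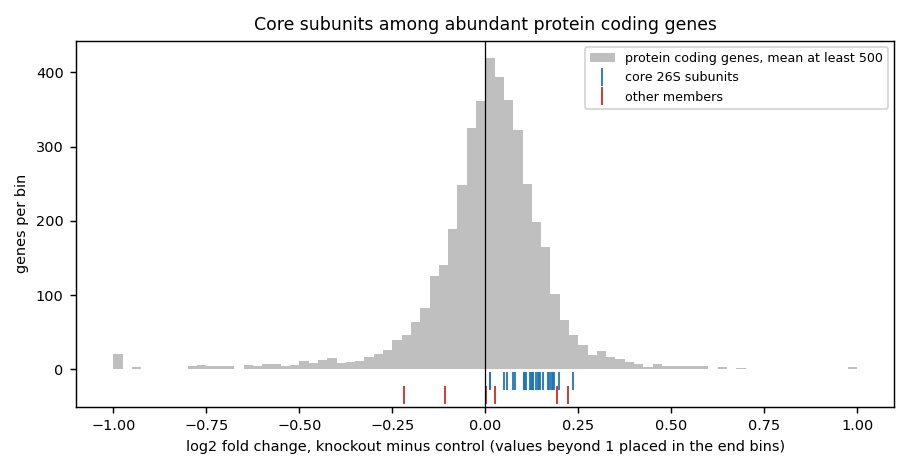
Log2 fold changes (horizontal axis, knockout minus control) of tested protein coding genes with a mean of at least 500 normalized counts, as genes per bin. Ticks below the bars mark the 30 abundant core subunits (blue), all above 0, and the other abundant members (red), on both sides of it.

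The size of a change that this comparison could call was set by each gene's SE. For a core subunit it ranged from 0.17 to 0.41 on the log2 scale, with a median of 0.24. It ranged from 0.33 to 0.74 for the assembly chaperones and from 0.22 to 0.89 for the activators. The 95% interval of all 31 core subunits lay within a 1.5-fold change in either direction. The estimates of the core subunits varied among themselves with an SD of 0.06, less than the median SE of a single gene.

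**Figure D2:**
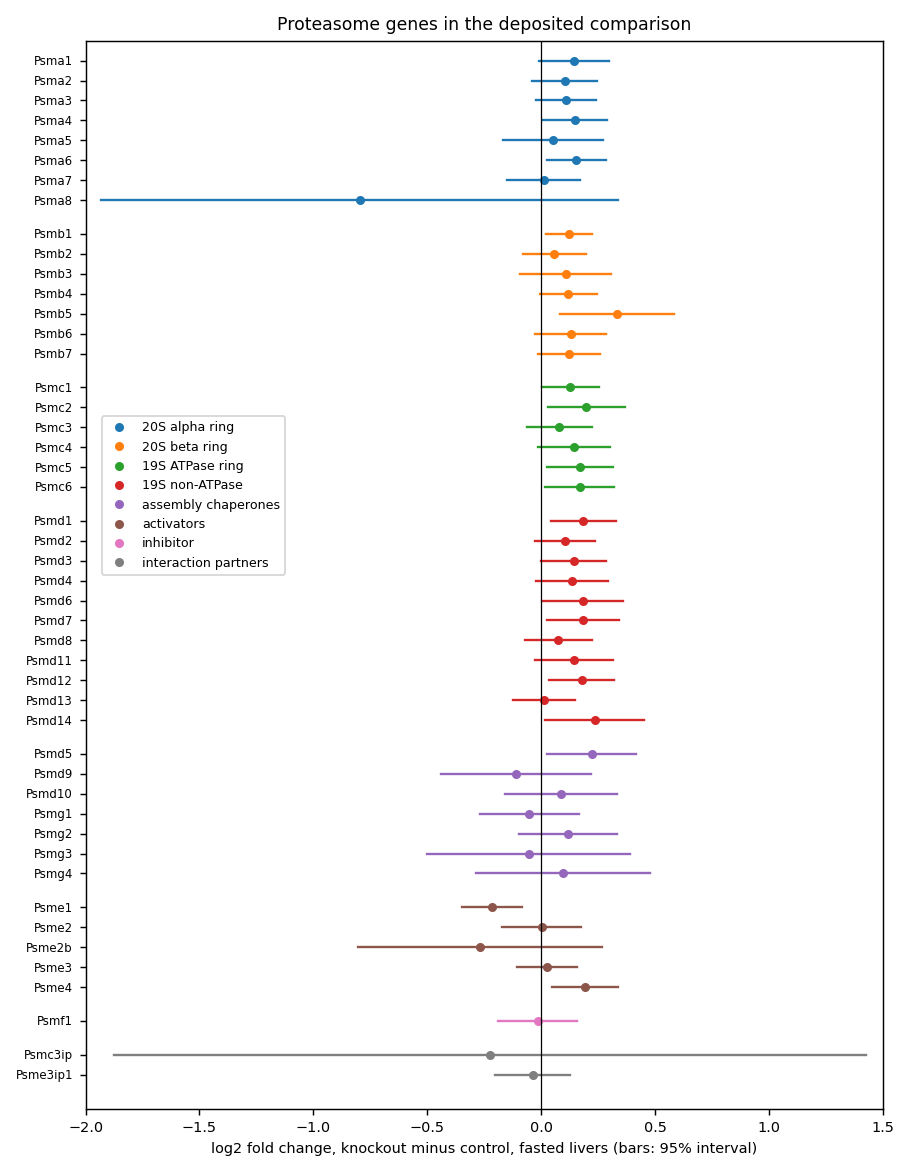
Log2 fold change (horizontal axis) of the 47 genes with 95% intervals, coloured by part of the complex. Points of the 20S and 19S subunits drawn lie to the right of 0 except for Psma8; intervals are wide for the barely detected Psma8 and Psmc3ip.

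In the alpha ring, the gate of the core, estimates ran from 0.01 for Psma7 to 0.15 for Psma6 in the authors' deposited table, with a median of 0.11 over 7 genes. Psma6 was at 0.15 ± 0.07 (SE) and its DESeq2 adjusted p was 0.288, and Psma4 at 0.15 ± 0.07 (SE) with an adjusted p of 0.401, in the authors' deposited table. The eighth gene, Psma8, encodes a form of the Psma7 subunit used in the testis. It was barely detected, with a mean of 11.0 normalized counts against 1697 for Psma7 in the authors' deposited table. The authors' deposited table put it at -0.80 ± 0.58 (SE), an interval from -1.93 to 0.34. The 3 listed genes of spermatogenic cells that the table holds, Acr, Ddx4 and Sycp3, had means of 0.589, 0.340 and 1.78 normalized counts in the authors' deposited table.

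The beta ring had a median of 0.12 over 7 genes. Its highest estimate, and the highest of all members, was that of Psmb5 (ENSMUSG00000022193, chromosome 14, 54614119 to 54618022, minus strand, GRCm38 positions of GENCODE M21 here and below), which encodes the subunit with chymotrypsin-like activity. It was at 0.33 ± 0.13 (SE) with an unadjusted p of 0.00872 and a DESeq2 adjusted p of 0.183, in the authors' deposited table. The other catalytic genes were closer to the rest of the ring: Psmb6, of the caspase-like subunit, was at 0.13 ± 0.08 (SE) and Psmb7, of the trypsin-like subunit, at 0.12 ± 0.07 (SE) in the authors' deposited table. The intervals of the catalytic genes overlapped, from 0.08 to 0.58 for Psmb5 and from -0.01 to 0.26 for Psmb7. Psmb1, a noncatalytic subunit, had the smallest SE of the 47 genes, at 0.12 ± 0.05 (SE) with a DESeq2 adjusted p of 0.263 per the authors' deposited table.

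The ATPase ring, which unfolds substrates and drives them into the core, had the highest median of the parts, at 0.16 over 6 genes with a range from 0.08 to 0.20. At an unadjusted p under 0.05, 4 of the 6 were higher: Psmc1, Psmc2, Psmc5 and Psmc6. Psmc2 was at 0.20 ± 0.09 (SE) and Psmc5 at 0.17 ± 0.07 (SE) in the authors' deposited table, with adjusted p of 0.302 and 0.287 by the authors' DESeq2 Wald test. Psmc3, at 0.08 ± 0.07 (SE), had the lowest estimate of the ring in the authors' deposited table.

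Among 11 non-ATPase subunits of the cap the median was 0.14. Estimates ran from 0.01 ± 0.07 (SE) for Psmd13 to 0.23 ± 0.11 (SE) for Psmd14, the deubiquitinase of the cap, in the authors' deposited table. Psmd1, a large scaffold subunit, was at 0.18 ± 0.07 (SE) and Psmd12 at 0.18 ± 0.07 (SE) in the authors' deposited table, with adjusted p of 0.216 and 0.243 by the authors' DESeq2 Wald test. Psmd7, the partner of Psmd14, was at 0.18 ± 0.08 (SE) per the authors' deposited table with an adjusted p of 0.315. The ubiquitin receptor Psmd4 was at 0.14 ± 0.08 (SE) per the authors' deposited table, and the other large scaffold subunit, Psmd2, was at 0.10 ± 0.07 (SE).

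The members other than the 31 core subunits, Psma8 among them, were not on one side of 0. Of the 15 with an adjusted p, 7 estimates were positive and 8 negative, with a median of -0.02. The difference between these genes and the core subunits was not tested. Chaperones of the 19S cap comprised Psmd5 at 0.22 ± 0.10 (SE), Psmd10 at 0.09 ± 0.13 (SE) and Psmd9 at -0.11 ± 0.17 (SE) in the authors' deposited table. Those that assemble the 20S core, Psmg1 to Psmg4, lay between -0.05 and 0.12 with a median of 0.02. Psmf1, which encodes the inhibitor PI31, was at -0.02 ± 0.09 (SE) per the authors' deposited table.

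The activators, which open the core in place of the 19S cap, had estimates of both signs. Psme1 (ENSMUSG00000022216, chromosome 14, 55578123 to 55581529), one of the interferon-inducible subunits of the PA28 ring, had the smallest p of all members. Its log2 fold change of -0.22 ± 0.07 (SE), a fold of 0.860, had an unadjusted p of 0.00126 and a DESeq2 adjusted p of 0.0551, in the authors' deposited table. With the authors' Wald p-values adjusted again over the 8875 genes whose mean reached 100 or more, its adjusted p was 0.0464 and it was called lower, where 2.83% of genes were called and 2.02% lower. At a threshold of 0.1 it was the 1 member called, where 3.25% of tested genes were called and 2.26% lower. Psme2, the gene of its ring partner, lies close by on chromosome 14 (55587441 to 55591113) and was at 0.00 ± 0.09 (SE) per the authors' deposited table. The interval of Psme1 ran from -0.35 to -0.09 and that of Psme2 from -0.17 to 0.17, so they overlapped. Psme4, which encodes the nuclear activator PA200, was at 0.19 ± 0.07 (SE) with a DESeq2 adjusted p of 0.194 per the authors' deposited table. Its mean was 3183 normalized counts, or 490 per kilobase of its transcript of 6491 bases. Psme3, of the nuclear PA28 gamma ring, was at 0.03 ± 0.07 (SE) per the authors' deposited table. Psme2b, a second copy of Psme2 on chromosome 11, had a mean of 28.4 normalized counts and was at -0.27 ± 0.27 (SE) per the authors' deposited table.

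Psme1 is usually discussed with the immunoproteasome, whose catalytic genes had estimates below 0. Of those 3 genes, 1 fell and 2 did not pass. Psmb8, which replaces Psmb5, was at -0.69 ± 0.17 (SE) and its DESeq2 adjusted p was 0.00321, in the authors' deposited table. Psmb9, which replaces Psmb6, was at -0.39 ± 0.21 (SE) and Psmb10, which replaces Psmb7, at -0.09 ± 0.17 (SE) in the authors' deposited table. In each catalytic position the ordinary gene had a positive estimate and the inducible gene a negative one. For Psmb5 and Psmb8 the 95% intervals did not overlap, although the difference itself was not tested. Immune cells are known to express the immunoproteasome. Of the markers of those resident in liver, 12 of 12 for Kupffer cells and macrophages had negative estimates, with a median of -0.27. Of these, 0 were called (DESeq2) and 1 had an unadjusted p under 0.05, Clec4f at -0.27 ± 0.13 (SE) per the authors' deposited table. Among all tested genes, 6412 of 13335 estimates were negative. Markers measured in the same livers are not independent of each other, so their signs describe the list and do not test it. Positive estimates were found for 5 of 8 sinusoidal endothelial markers, 5 of 6 stellate markers and 2 of 4 tested cholangiocyte markers. At an unadjusted p under 0.05, 1 sinusoidal marker was higher and 1 lower, the latter Lyve1 at -0.71 ± 0.33 (SE) per the authors' deposited table. Of 8 hepatocyte markers 1 fell, Apoa1 at -0.48 ± 0.11 (SE) per the authors' deposited table. Another 5 had positive estimates, 2 of them at an unadjusted p under 0.05. Of 5 red blood cell markers 1 fell, Alas2 at -0.41 ± 0.12 (SE) per the authors' deposited table, and 2 had positive estimates. Of all tested genes, 1.6% were called lower. Of 8 lymphocyte and leukocyte markers, 2 had an adjusted p and 0 were called. The estimates of these 2 were negative, and 1 had an unadjusted p under 0.05. It was Cd3e, at -1.10 ± 0.55 (SE) with a mean of 8.44 normalized counts per the authors' deposited table. The part of the Kupffer cell and macrophage markers in the estimates of Psmb8, Psmb9 and Psme1 was not tested, and in whole liver fewer cells of a type and less RNA per cell cannot be told apart.

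**Figure D3:**
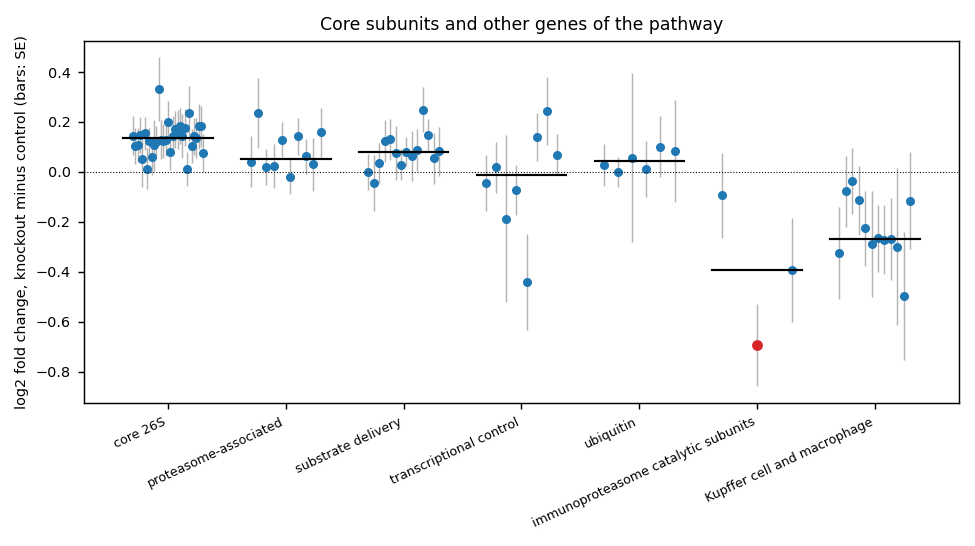
Log2 fold change with SE (vertical axis) of the core subunits and of other genes of the pathway, by list; a black line marks each median and red marks a called gene. Psmb8 is the called gene, and the Kupffer cell and macrophage markers all lie below 0.

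Other genes that work with the proteasome were not called either. Among 10 genes of associated proteins and maturation factors, Adrm1 and Sem1 included, with a DESeq2 adjusted p, 0 were called, 0 had an unadjusted p under 0.05, and the median was 0.05. Among them were Pomp, the maturation factor of the core, at 0.13 ± 0.07 (SE), and Txnl1, a thioredoxin bound to the cap, at 0.14 ± 0.07 (SE) in the authors' deposited table; the latter had the smallest p of the list. Of 14 genes that deliver substrates, 0 were called and 2 had an unadjusted p under 0.05, both higher, with a median of 0.08. They were Ufd1, at 0.25 ± 0.09 (SE) with an adjusted p of 0.142, and Vcp, the segregase it works with, at 0.15 ± 0.07 (SE) with an adjusted p of 0.335, in the authors' deposited table. Of 6 ubiquitin and ubiquitin-activating genes, 0 were called and 0 had an unadjusted p under 0.05. Most estimates in these lists were positive too, so a positive sign was not particular to the core subunits. It was found for 9 of the 10 associated genes, 12 of the 14 delivery genes and 5 of the 6 ubiquitin genes. Among all tested genes it was 51.9%.

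Genes for transcription of the subunits or processing of their regulator were 8 in number, Ngly1 and Ddi2 among them. Of these 8, 0 were called, 1 was lower at an unadjusted p under 0.05, and 4 had positive estimates, with a median of -0.01. Ddi2 was also counted among the genes that deliver substrates. Nfe2l1 itself was at 0.14 ± 0.10 (SE) and its relative Nfe2l2 at 0.24 ± 0.14 (SE) in the authors' deposited table. Mafk, a small partner of both, was at -0.44 ± 0.19 (SE) and its DESeq2 adjusted p was 0.294, in the authors' deposited table. The RNA of Nfe2l1 does not measure its activity, since the protein is mostly controlled by its own degradation and processing.

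Since the core subunits shared a sign, promoters of all 47 genes were searched for the core of the antioxidant response element, TGACNNNGC. Both strands were searched, from 250 bases before to 50 bases after the RefSeq start (GRCm38.p6). Sequences were found for 39 of the 47 genes. A match was present in 6 of them (15.4%), and in 6 of their 43 windows, against 12.4% of all 32851 promoter windows, a share near that background. The genes were the core subunits Psmb5, Psmb6, Psmc6 and Psmd12, with Psmd9 and Psme4 from outside the core. The match of Psme4 spans the start itself. Of these 6, Psmd9 had a negative estimate and the other 5 positive ones, including the highest member, Psmb5. The 5 matches that lie wholly before the start are printed in 120 bases each, 5′ to 3′ on the strand of the gene. Capitals mark the match, which lies on the opposite strand in Psmc6 and Psmd12.
Psmb5 (chr14:54618023-54618142, minus strand): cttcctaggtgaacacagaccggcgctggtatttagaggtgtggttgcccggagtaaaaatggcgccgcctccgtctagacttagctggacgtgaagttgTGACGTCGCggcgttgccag
Psmb6 (chr11:70525237-70525356, plus strand): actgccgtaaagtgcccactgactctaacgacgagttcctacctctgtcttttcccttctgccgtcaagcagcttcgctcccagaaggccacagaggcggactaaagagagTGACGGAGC
Psmc6 (chr14:45329597-45329716, plus strand): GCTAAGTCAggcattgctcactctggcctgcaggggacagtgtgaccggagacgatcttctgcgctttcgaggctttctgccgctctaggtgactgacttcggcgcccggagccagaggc
Psmd12 (chr11:107479281-107479400, plus strand): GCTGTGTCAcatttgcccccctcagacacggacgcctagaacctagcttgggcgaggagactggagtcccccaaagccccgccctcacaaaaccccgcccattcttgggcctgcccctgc
Psmd9 (chr5:123228070-123228189, plus strand): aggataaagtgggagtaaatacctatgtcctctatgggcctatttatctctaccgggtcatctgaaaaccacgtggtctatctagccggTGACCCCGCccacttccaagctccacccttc

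The matches of Psmb5, Psmb6 and Psmd9 lie close to the RefSeq start, at 47 to 39, 9 to 1 and 31 to 23 bases before it. Those of Psmc6 and Psmd12 lie over 200 bases before it. An interferon response pattern, GAAA followed after any 2 bases by GAAA, was searched on both strands. It was present in 5 of the 39 genes (12.8%), and in 5 of their 43 windows, against 3.44% of all windows. The difference rests on 5 genes and was not tested. The genes were Psmb3, Psmd4, Psmd9, Psme1 and Psmg4. Estimates were positive for Psmb3 (0.11), Psmd4 (0.14) and Psmg4 (0.10), and negative for Psmd9 (-0.11) and Psme1 (-0.22), in the authors' deposited table. In Psme1, the member with the smallest p, the pattern lies 9 to 18 bases after the RefSeq start. The window of Psme1, 55578244 to 55578543 on chromosome 14, begins inside the gene as GENCODE places it, as does the window of Psmd9. A match describes the letters and does not show that a factor binds there.

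Proteasome RNA was abundant. Per kilobase of transcript, which allows genes of different length to be compared, the 31 core subunits had a median level of 1056 normalized counts, against 98.0 for all tested protein coding genes. The ATPase genes ranged from 843 for Psmc6 to 1466 for Psmc1 per kilobase. Non-ATPase subunits lay between 519 and 1462 per kilobase. Assembly chaperones were lower, with a median level of 155 per kilobase, and the activators had a median of 490. These are means over all libraries, with no spread between livers to set beside them.

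Since each subunit occupies a fixed place in the rings, the levels of the 20S genes were set side by side per kilobase of coding length, which leaves out differing ends of the transcripts. Levels ran from 1569 to 2646 normalized counts per kilobase for 11 of the 14 genes, and the other 3 were Psmb3 at 1166, Psma5 at 806 and Psmb5 at 243. These 3 are also the 20S genes whose sequence is most often repeated elsewhere. Of the 50-base stretches in their exons, 17.8% in Psmb3, 49.1% in Psma5 and 54.1% in Psmb5 occur unchanged in exons of other genes, chiefly pseudogenes. Reads from such stretches can be assigned to another copy or to none, depending on counting rules that the labels do not give. The levels of these genes are therefore uncertain, and the part of shared sequence in them was not tested. Psma3 and Psma4 had the next highest shares, 15.4% and 11.6%, with levels of 1584 and 2083, within the range of the 11 genes. The order depends on the length used. Per kilobase of transcript Psmb5 was again lowest, at 214. Psma2, with 2.79% shared, was at 386 and Psma3 at 426, below Psma5 at 471 and Psmb3 at 936.

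For Psmb5 the copy was itself measured. Gm3375, a processed pseudogene on chromosome 7 (3181093 to 3181888), holds 46.8% of the 50-base stretches of Psmb5. It had a mean of 265.1 normalized counts, more than the 192.1 of Psmb5, and was at 0.12 ± 0.10 (SE) per the authors' deposited table. Its estimate was closer to those of Psmb6 and Psmb7 than that of Psmb5 was. The summed mean of gene and copy was 457.2 normalized counts, beside 1438 for Psmb6 and 1763 for Psmb7 in the authors' deposited table. Reads assigned to no gene would not be in that sum. The part of shared sequence in the level of Psmb5, and in its log2 fold change, the highest of the members, was not tested. The copies of Psma5 were hardly counted, Gm12989 at 2.12 and Gm8394 (named Psma5-ps in the file) at 1.82 normalized counts in the authors' deposited table.

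**Figure D4:**
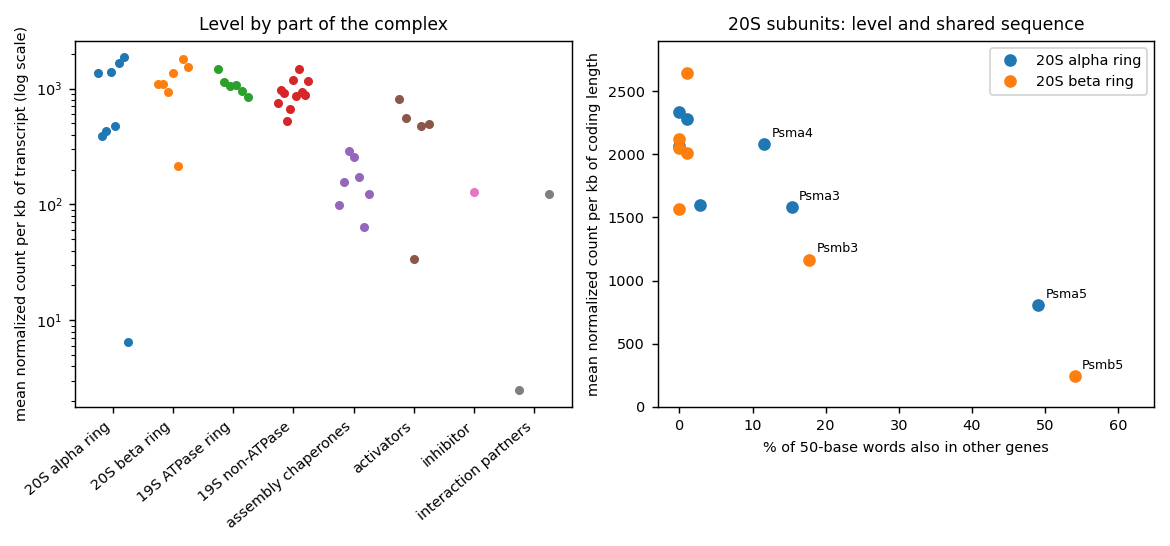
Left, mean normalized count per kilobase of transcript (vertical, log axis) for each of the 47 genes, by part of the complex (horizontal). Right, the 14 ordinary 20S subunits by the share of 50-base stretches found in other genes (horizontal) and the mean normalized count per kilobase of coding length (vertical); Psmb5, at 54.1% shared, has the lowest level, 243.

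The mean levels of ordinary and inducible catalytic genes were set against each other by position. Psmb6 was 18.8 times as abundant as Psmb9 per kilobase of transcript (10.2 times per kilobase of coding length), and Psmb7 was 10.8 times as abundant as Psmb10 (9.46 times). The ratio of Psmb5 to Psmb8 was 1.46 per kilobase of transcript and 0.843 per kilobase of coding length, so their order depends on the length used. Given the shared sequence of Psmb5, that ratio carries the uncertainty just described. In the activator ring Psme1 was 1.48 times as abundant as Psme2 per kilobase of transcript, where 28.3% of the 50-base stretches of Psme2 also occur in Psme2b.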

How the data were processed

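Liver RNA of 15 mice was sequenced; per the labels' protocols, libraries were made with a stranded kit from TRIzol extracts. FastQC, STAR 2.6.0c, DESeq2 and the mm10 build are listed, per the submitters' processing notes. Which counter, strand option and gene models were used is not given in the sources used here. Values in the deposited table were read as they stand and not refitted. Its columns are, per the file headers, a mean signal (counts divided by size factors, by the authors), a log2 fold change with its log2 SE, a Wald score, and the p-value and adjusted p-value of the authors' DESeq2 Wald test. The means sum to 1.80e+07 normalized counts.

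The header names no groups. Genes with a single read gave the size factor of each library and 4 sets of log2 fold changes, in 4, 4, 4 and 3 libraries. Of 60 readings of the contrast, 2 gave the deposited values within 1e-06: knockout minus control in fasted livers, and refed minus fasted in control livers, both from an interaction model of all libraries with fasted control as reference. The closest other reading differed by 4.37e-05. The first was taken because the file is named for genotype. The single reads cannot separate them.

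A gene was called at a deposited adjusted p under 0.05. Members, lists and comparisons were chosen with earlier results of these data known. Every member could be named, with full statistics for those of smallest p; of other lists, called members and that of smallest p were to be named, and Adrm1, Sem1, Pomp, Vcp, Nfe2l1, Nfe2l2, Clec4f, the spermatogenic, feeding and pseudogene values were picked later, with values in view. Intervals are normal 95% intervals from the SE. Lengths, positions and 50-base stretches came from GENCODE M21 (GRCm38), matched by Ensembl ID for 24944 genes; the transcript with the longest coding sequence was used. Promoters came from RefSeq. Python 3.11.15, pandas 2.3.3 and SciPy 1.17.1 were used, and the adjustment and the reading of the contrast were tested on simulated data. Tests planned for single livers need values that this table lacks.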

Additional observations from a re-analysis of the deposited data

How the results depend on the processing

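No paired analysis was possible because single livers have no values in the table. Leaving out each liver, other normalizations and other tools were not run, on the same ground. When p-values were adjusted again across all genes that had one, across those with means of 10 or more, or across protein coding genes, and at a threshold of 0.01, 0 members were called in either direction. Across genes with means of 100 or more, 1 member was called lower, Psme1, and at a threshold of 0.1 it was again 1, while 0 were called higher. The median log2 fold change of the members, 0.12, ranged from 0.10 to 0.12 under the other choices of members, centring and weighting. Psme2 changed sign, to -0.0056, when the median of all tested genes was subtracted. The median core level of 1056 per kilobase of transcript was 1569 per kilobase of coding length. Changes of core subunits, assembly chaperones and activators below the callable sizes given for them could not be called with these standard errors.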
